A study of Mus musculus with 40 samples.

Results

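The genes described here encode the enzymes that write and erase DNA methylation and the factors that guard it: Dnmt1, Uhrf1, Dnmt3a, Dnmt3b, Dnmt3l, Tet1, Tet2, Tet3, Dppa3 and Zfp57. The 10 genes were chosen by function and looked up in a table of 38540 oocyte transcript loci, of which 15023 carry a gene name on the same strand. A locus was taken where its annotated gene was one of the 10, overlapped it and lay on the same strand, which found 8 of the 10. For Dnmt3b and Dnmt3l the table lists a neighbouring gene on the other strand, 7530422B04Rik and Aire. Their loci were matched by position to RefSeq annotation of GRCm38.p6 after other values had been seen, and they are reported but never counted among the 8.

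The study profiled germinal-vesicle oocytes, the fully grown oocytes arrested before meiotic maturation, pooled from mice aged 22 to 25 days. It compared controls, oocytes conditionally deleted for G9a (gene Ehmt2; group G9a cKO), and oocytes conditionally deleted for both G9a and Glp (genes Ehmt2 and Ehmt1; group cDKO). G9A and GLP work as partners and dimethylate histone H3 at lysine 9, a mark written H3K9me2. The 40 samples comprise 11 RNA-seq, 14 chromatin immunoprecipitation and 15 bisulphite libraries, and the tables used here hold the RNA and the 6 H3K9me2 libraries. RNA was measured in 3 controls whose sample titles begin with GKAO, 3 G9a cKO pools with the same prefix, 3 controls with the prefix GKAQ and 2 cDKO pools with that prefix, and each mutant is set against the controls of its own prefix. All groups are pools of oocytes, no treatment is labelled for any of them, and the promoter that drives the deletion and the genotype of the controls beyond the word control are not given in the sources used here. Nothing in the labels says whether pools came from separate mice, so p-values refer to spread between pools. For RNA that spread was taken largely from a trend over all loci, not from the replicates of each gene alone. In pooled material, fewer cells of a type and less RNA per cell cannot be told apart.

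Mammalian oocytes build their DNA methylation during growth, when DNMT3A and its catalytically inactive partner DNMT3L methylate transcribed gene bodies in non-dividing cells. DNMT1, guided by UHRF1, copies methylation onto newly made DNA and is stored by the oocyte for the embryo, and the TET enzymes oxidise 5-methylcytosine. DPPA3 (also called STELLA or PGC7) keeps UHRF1 out of the oocyte nucleus and shields the maternal genome from TET3 after fertilisation, while ZFP57 is a zinc-finger protein that holds methylation at imprinted regions.

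Dnmt1 and Dnmt3a were the genes of this group whose RNA was lower in cDKO with both cDKO pools below all 3 GKAQ controls and with a call that held without each GKAQ control or cDKO library in turn. To show annotated starts of both genes, promoter windows of RefSeq (GRCm38.p6) are printed 5′ to 3′ on the strand of the gene. Each runs from 250 bases before to 50 after an annotated start. Each CpG, the dinucleotide that DNA methylation acts on, is in capitals. The first is the upstream Dnmt1 start on the minus strand (chr9:20959839-20960138), 294 bases inside the 5′ end of the oocyte locus. The second is the most downstream annotated Dnmt1 start on the minus strand (chr9:20952574-20952873), 7559 bases inside it. The third is a Dnmt3a start on the plus strand (chr12:3806910-3807209), 130 bases inside the 5′ end of its locus. It was chosen because it has the most CpGs of the annotated Dnmt3a starts. Another lies at −50 bases from the 5′ end of the locus, and another 84714 bases inside it.

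Dnmt1 upstream start: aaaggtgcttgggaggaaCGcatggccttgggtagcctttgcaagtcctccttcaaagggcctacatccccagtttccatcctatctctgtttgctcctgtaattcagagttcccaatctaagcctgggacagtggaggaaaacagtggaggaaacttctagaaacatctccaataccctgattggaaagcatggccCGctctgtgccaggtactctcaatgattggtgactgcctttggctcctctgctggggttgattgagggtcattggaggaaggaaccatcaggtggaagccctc

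Dnmt1 downstream start: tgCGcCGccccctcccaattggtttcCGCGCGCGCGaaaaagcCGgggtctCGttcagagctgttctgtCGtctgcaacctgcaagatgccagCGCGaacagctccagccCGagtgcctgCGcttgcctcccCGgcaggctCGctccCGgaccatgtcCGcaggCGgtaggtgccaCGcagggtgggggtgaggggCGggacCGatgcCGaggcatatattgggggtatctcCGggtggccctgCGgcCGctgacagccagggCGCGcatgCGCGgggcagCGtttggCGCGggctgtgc

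Dnmt3a start: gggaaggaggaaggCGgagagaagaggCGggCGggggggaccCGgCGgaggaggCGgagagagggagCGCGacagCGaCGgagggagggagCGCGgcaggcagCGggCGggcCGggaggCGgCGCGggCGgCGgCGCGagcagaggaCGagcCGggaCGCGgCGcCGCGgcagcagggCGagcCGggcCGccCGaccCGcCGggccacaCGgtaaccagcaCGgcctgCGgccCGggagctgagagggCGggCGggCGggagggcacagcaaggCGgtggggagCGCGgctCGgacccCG

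The upstream Dnmt1 window held 2 CpGs, and 23.3% of 32851 annotated promoter windows had as few or fewer. The downstream Dnmt1 window held 33, a number reached by 8.6% of windows, and the Dnmt3a window held 47, reached by 1.4%. The Dnmt3a windows not printed held 46 and 18, reached by 1.6% and 29.7%, and which Dnmt3a start the oocytes used was not measured. The median window had 7. Oocytes are known to make Dnmt1 from a first exon of their own. In these data the Dnmt1 locus reached past the CpG-poor upstream start (locus chr9:20907206-20960182), and the table holds 1 value for the whole locus, so use of the separate starts was not measured. The letters GGGCGG, the GC box bound by Sp-family factors, counted on both strands, occurred 0 times in the upstream Dnmt1 window, 2 times in the downstream one and 7 times in the Dnmt3a window, and at least once in 35.7% of all windows. Windows were found for 9 of the 10 genes, and Dppa3 had none.

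The RNA libraries were scaled to totals of 1458868 to 2399680 reads and the H3K9me2 libraries to 1109191 to 19128881. RNA levels are given as RPM, reads scaled to a library total of 1000000. The 12 oocyte markers summed to 10266 to 12991 RPM in each library. The 16 granulosa markers summed to 385 to 435 RPM in GKAO controls and 321 to 355 in G9a cKO, and to 323 to 349 in GKAQ controls and 356 to 415 in cDKO. Serpine2, Nr5a2 and Cyp19a1 held most of that sum. Of the markers that define granulosa cells, Foxl2, Amh and Cyp11a1 had at most 5 reads in any library, and Fshr, the receptor for follicle-stimulating hormone, had up to 16. Fshr was at 5.34 to 9.11 RPM in cDKO against 0.63 to 2.50 in GKAQ controls, and at 4.37 to 6.59 in G9a cKO against 0 to 2.93 in GKAO controls. Inha (6.83 and 10.08 against 0.99 to 4.17) and Hsd17b1 (3.56 and 6.26 against 0.63 to 2.96) were also above the GKAQ controls in both cDKO pools. So was Serpine2 (267.61 and 236.53 against 182.87 to 187.29). Cyp19a1 (35.30 and 23.71 against 45.42 to 49.02) was below them, and Kitl (3.99 and 5.34 against 4.40 to 8.75) overlapped them. In G9a cKO, Inha (3.34 to 3.82 against 5.48 to 7.33) and Cyp19a1 (23.54 to 31.68 against 34.96 to 48.64) were below all GKAO controls. Nr5a2 and Serpine2 were below them as well. Blood markers summed to at most 4.1 RPM with Hba-a1, Hbb-bs and Hbb-bt at 0, and theca and stroma markers to at most 10.8 RPM with Col1a2, Col3a1, Lum and Acta2 at 0. The part of these markers in the results was not tested. Ehmt1 had 31 and 36 reads in cDKO against 144, 164 and 173 in GKAQ controls. Ehmt2 had 5, 11 and 2 reads in G9a cKO against 12, 13 and 9 in GKAO controls, and 5 in each cDKO pool against 8, 30 and 16 in GKAQ controls. It was called in neither mutant (limma, adjusted p = 0.0971 in G9a cKO and 0.121 in cDKO). The library labelled G9a cKO replicate 2, with 6.01 RPM of Ehmt2, therefore lay within the range of its controls. Which exons were deleted is not given in the sources used here, and reads outside them would remain.

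Dnmt1, the maintenance methyltransferase, held more reads than any other locus in all 11 libraries, before any adjustment for transcript length, and its RNA fell in cDKO but not in G9a cKO. The 3 GKAQ controls had 9243, 8900 and 8857 RPM and the 2 cDKO pools 6202 and 5836 RPM. Both cDKO pools were below every other library, and their mean of 6019 ± 258 RPM (SD, n = 2) was 0.669 times the GKAQ control mean of 9000 ± 211 (SD, n = 3). The log2 fold change was −0.58 (limma, adjusted p = 3.57e-86). The GKAO controls had 8587, 9311 and 8187 RPM and the G9a cKO pools 8405, 8984 and 8674 RPM. These groups overlapped throughout, with a log2 fold change of 0.00 and a 95% interval from −0.05 to 0.05 (adjusted p = 0.993). The difference between the cDKO and G9a cKO effects also passed the test, at −0.58 on the log2 scale (adjusted p = 6.14e-47). The standard error of 0.03 behind the cDKO value is taken from the trend over loci, and the spread of Dnmt1 between its own replicates gave 0.06. Without the trend and the robust step the adjusted p of the cDKO fall was 0.0604 and that of the difference 0.232, and precision weights on reads gave 0.02 and 0.106.

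Uhrf1 (chr17:56302960-56325035, plus strand), which recruits DNMT1 to hemimethylated DNA, was not called in any comparison. Its GKAO controls had 617, 624 and 524 RPM and its G9a cKO pools 656, 688 and 574. The GKAQ controls had 630, 639 and 624 RPM and the cDKO pools 633 and 618. The cDKO values lay within or next to the narrow range of their controls, with a log2 fold change of −0.01 and a 95% interval from −0.16 to 0.14 (adjusted p = 0.911). In G9a cKO the log2 fold change was 0.12 (interval −0.02 to 0.26, adjusted p = 0.23).

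Dnmt3a (chr12:3807030-3914443, plus strand), the de novo methyltransferase of growing oocytes, fell in cDKO. The GKAQ controls had 492, 415 and 467 RPM and the cDKO pools 324 and 311 RPM. The groups did not overlap, and the cDKO mean was 0.693 times that of the controls (log2 fold change −0.53, SE 0.09, adjusted p = 1.71e-06). The GKAO controls had 402, 434 and 436 RPM and the G9a cKO pools 376, 406 and 367 RPM. G9a cKO overlapped its controls with a log2 fold change of −0.15 (interval −0.31 to 0.01, adjusted p = 0.23). The effect in cDKO was not shown to differ from that in G9a cKO (log2 difference −0.38, adjusted p = 0.123). The cDKO call was lost without the trend and the robust step (adjusted p = 0.107). It was also lost with the title number as a block (−0.42), which compares only 1 cDKO pool with 1 GKAQ control, those of number 55. The difference passed with each library centred on its median over loci of at least 10 RPM (log2 difference −0.45, adjusted p = 0.0332).

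Dnmt3b, a second de novo methyltransferase, lay at chr2:153632819-153687730 on the plus strand with 25 to 92 reads per library. It had 15.7, 19.6 and 15.3 RPM in GKAQ controls and 28.5 and 20.2 in cDKO. The cDKO pools were above their controls, and the fold change did not pass the test (log2 0.52, SE 0.28, adjusted p = 0.359). In the GKAO set, 37.0, 26.7 and 31.6 RPM in controls stood beside 38.4, 32.8 and 31.6 in G9a cKO (log2 fold change 0.12, adjusted p = 0.766). Dnmt3l, at chr10:78041822-78063622 on the plus strand, had 167 to 204 RPM in the 6 controls, 176 to 196 in G9a cKO and 157 and 170 in cDKO. Neither mutant was separated from its controls, with log2 fold changes of 0.00 (interval −0.22 to 0.23) and −0.17 (interval −0.42 to 0.08). Each shares its position with a locus of the opposite strand, and whether reads were counted by strand is not stated, so their values may include reads of the other gene.

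Among the erasers, Tet3, the oocyte-stored enzyme that oxidises the paternal genome after fertilisation, had the most reads. The GKAO controls had 339, 298 and 283 RPM and the G9a cKO pools 407, 414 and 283 RPM. The first and second G9a cKO pools were above all controls and the third was at the lowest of them, and the log2 fold change of 0.25 did not pass the test (SE 0.10, adjusted p = 0.23). The GKAQ controls had 219, 211 and 232 RPM and the cDKO pools 217 and 144 RPM. One cDKO pool was within its controls and the other below them (log2 fold change −0.32, SE 0.11, adjusted p = 0.0521). The 2 effects differed from each other at the threshold (log2 difference −0.56, SE 0.15, adjusted p = 0.0169). That call was lost without GKAO control replicate 2 or 3, G9a cKO replicate 1 or 2, GKAQ control replicate 3 or cDKO replicate 2, with adjusted p up to 0.358 and a log2 difference of −0.27 without cDKO replicate 2. It was also lost on loci of at least 1 RPM (adjusted p = 0.156), on the log2(RPM + 1) scale (0.718) and without the trend and the robust step (0.232). Without G9a cKO replicate 3 the rise in G9a cKO passed (log2 0.43, adjusted p = 0.0144), and without cDKO replicate 1 the fall in cDKO passed (log2 −0.61, adjusted p = 0.000268). The Tet3 locus (chr6:83362142-83460282, minus strand) also overlaps a locus on the other strand.

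Tet1 (chr10:62804570-62865304, minus strand) and Tet2 (chr3:133463679-133545099, minus strand), which encode the related oxidising enzymes, were near the detection limit. Tet1 had 0 to 10 reads per library and was not called in either mutant, with 5, 7 and 10 reads in GKAO controls, 7, 5 and 6 in G9a cKO, 0, 2 and 6 in GKAQ controls and 2 and 5 in cDKO. Its locus begins inside the gene and covers 73.3% of the RefSeq span. Tet2 had 3, 2 and 5 reads in GKAQ controls and 11 and 10 in cDKO. The groups did not overlap and the rise passed the test (log2 fold change 1.96, SE 0.63, adjusted p = 0.0338), while the cDKO level of 5.93 to 6.26 RPM lay within the 2.93 to 6.28 RPM of GKAO controls. The Tet2 call was lost in 9 of the 13 alternatives run, among them those without GKAQ control replicate 2 (log2 1.50, adjusted p = 0.246), without cDKO replicate 1 (adjusted p = 0.203) and without cDKO replicate 2 (adjusted p = 0.154). In G9a cKO, Tet2 had 16, 5 and 9 reads against 6, 12 and 5 in GKAO controls and was not called (adjusted p = 0.992).

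Dppa3 (chr6:122626199-122631064, plus strand), the protector of the maternal genome, fell in both mutants and also differed between the control sets. The GKAO controls had 450, 485 and 546 RPM and the G9a cKO pools 371, 381 and 399 RPM. All G9a cKO pools were below all of their controls, at 0.777 times the mean (log2 fold change −0.36, SE 0.07, adjusted p = 8.38e-05). The GKAQ controls had 992, 989 and 1068 RPM and the cDKO pools 637 and 917 RPM. Both cDKO pools were below their controls and above every GKAO library, at 0.764 times the GKAQ mean (log2 fold change −0.41, SE 0.08, adjusted p = 1.51e-05). The effects did not differ from each other (log2 difference −0.05, interval −0.26 to 0.16, adjusted p = 0.782). The spread of Dppa3 between its own replicates gave larger standard errors, 0.135 in G9a cKO and 0.151 in cDKO. The fall in cDKO rests on 1 pool: without cDKO replicate 1 it was −0.15. With the title number as a block it was −0.11, which compares 1 cDKO pool with 1 GKAQ control, those of number 55. With all 6 controls pooled its sign turned, to 0.11, and the fall in G9a cKO was −0.88 and not called (adjusted p = 0.34). Against GKAO controls, the fall in G9a cKO held without each of the 6 libraries in turn, with log2 values of −0.43 to −0.28, and without the library labelled G9a cKO replicate 2 it was −0.36 (adjusted p = 0.00162). Both falls were lost on the log2(RPM + 1) scale, with adjusted p of 0.401 for the single and 0.203 for the double deletion, and without the trend and the robust step (0.279 and 0.349).

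Zfp57 (chr17:36996203-37014475, plus strand), the guardian of imprinted regions, was among the 25 loci with the most reads in every library and was not called in any RNA comparison. It had 1960, 1982 and 2159 RPM in GKAO controls and 1854, 1944 and 2020 in G9a cKO (log2 fold change −0.07, interval −0.15 to 0.02, adjusted p = 0.256). It had 2123, 2200 and 2107 RPM in GKAQ controls and 2161 and 2435 in cDKO. These groups overlapped (log2 fold change 0.10, SE 0.05, adjusted p = 0.281). Without cDKO replicate 1 the cDKO value passed (log2 0.19, adjusted p = 0.0316). Its locus overlaps a locus on the other strand.

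**Figure D1:**
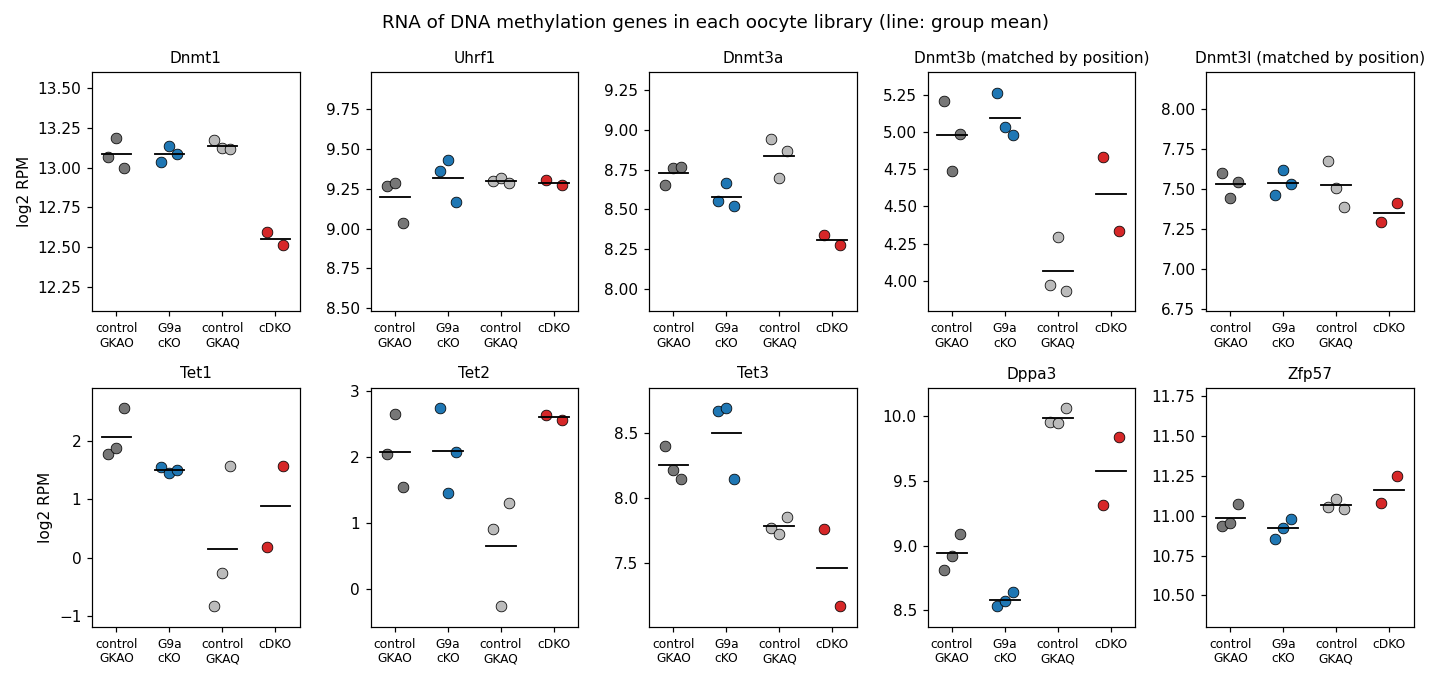
RNA level of each gene in each library, as log2 RPM on an axis of its own per gene that does not start at 0. Points are libraries and lines are group means. The cDKO points of Dnmt1 and Dnmt3a lie below all other points, and the GKAQ controls of Dppa3 lie at 989 to 1068 RPM, above all other points.

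Counted over the 8 genes found by name and strand, 1 was called in G9a cKO, Dppa3, which was lower. Over all loci 1.79% were called in that comparison, and 5.22% of loci with a mean of at least 10 RPM, with 0.737% of all loci called lower. In cDKO 4 of 8 were called, with Dnmt1, Dnmt3a and Dppa3 lower and Tet2 higher, where 6.34% of all loci and 15.8% of those of at least 10 RPM were called, 2.02% of all loci lower and 4.32% higher. In the difference between the effects 2 of 8 were called, Dnmt1 and Tet3, against 1.08% of all loci and 3.34% of those of at least 10 RPM. The median log2 fold change of the 8 genes was −0.03 in G9a cKO and −0.17 in cDKO, beside 0.01 and 0.05 over the 9091 loci of at least 10 RPM. With each library centred on those loci, the share of calls that were higher went from 68.1% to 53.1% over all loci in cDKO and from 63.3% to 45.6% in the difference. Together the 10 loci took 1.24% to 1.33% of reads in GKAO controls, 1.23% to 1.31% in G9a cKO, 1.35% to 1.39% in GKAQ controls and 1.04% to 1.05% in cDKO, most of them from Dnmt1.

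**Figure D2:**
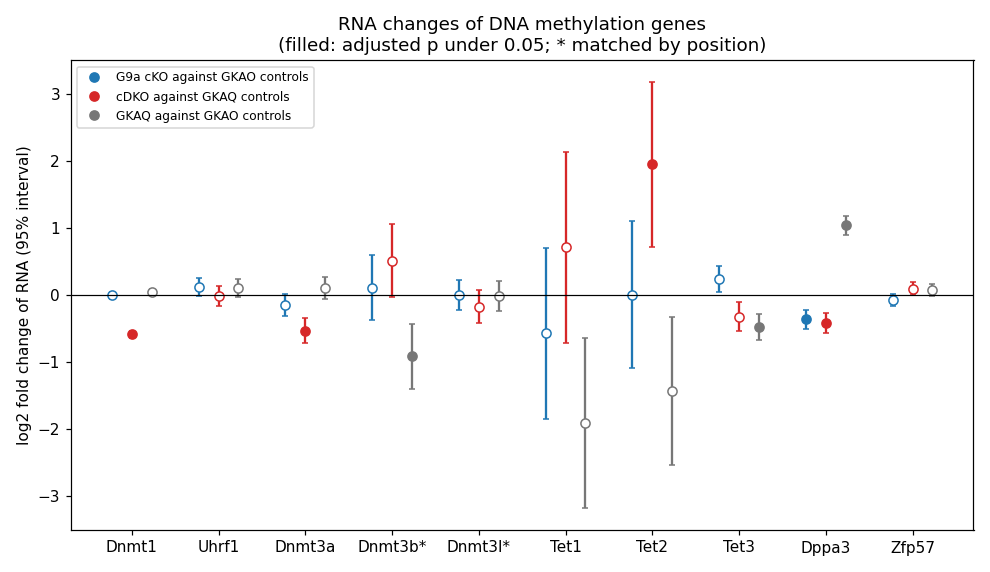
Log2 fold change of RNA on the vertical axis for each gene, with 95% intervals from limma. Colours give the comparison, filled points have an adjusted p under 0.05, and stars mark loci matched by position. Dnmt1 at −0.58 and Dnmt3a at −0.53 are filled in cDKO only, and Dppa3 is filled in all 3 comparisons with the control sets 1.05 apart.

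The control sets themselves differed at some of these genes, which sets the size of change seen without any labelled deletion. Dppa3 was 2.06 times higher in GKAQ than in GKAO controls (log2 difference 1.05, SE 0.07, adjusted p = 1.13e-46), with no overlap. Tet3 was lower in GKAQ controls (log2 difference −0.47, SE 0.10, adjusted p = 9.92e-05), also with no overlap, and this call was lost on the log2(RPM + 1) scale (adjusted p = 0.384) and without the trend and the robust step (0.466). Both differences were larger than the changes of the same genes in G9a cKO and cDKO. Of the 8 genes, 2 were called between control sets, against 3.87% of all loci and 14.8% of those of at least 10 RPM. Dnmt3b was lower in GKAQ controls as well (log2 difference −0.91, SE 0.25, adjusted p = 0.0092), a call lost without GKAO control replicate 1 (0.0996) and without GKAQ control replicate 1 (0.0549) or 3 (0.0719). Tet1 and Tet2 had larger log2 differences than Dppa3, of −1.91 and −1.43 without overlap, on at most 12 reads per control library, and were not called (adjusted p = 0.0764 and 0.178). Dnmt1, Dnmt3a and Dnmt3l differed by 0.05, 0.11 and −0.01 between control sets and were not called. Genotype and prefix cannot be told apart across the prefixes, so changes in cDKO were tested against GKAQ controls. The alternative with all controls pooled is the exception. Where levels in cDKO are set beside GKAO libraries, they are a description and no effect of genotype was read from them.

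H3K9me2 was then measured over the bodies of the same genes, in mean RPM per 10 kb window, with 2 libraries per genotype. The values are shares of each library, so a change of the mark over the whole genome cannot be seen, and the same 2 controls serve both mutants. The H3K9me2 titles carry no GKAO or GKAQ prefix. Tet3 had 3.59 and 3.69 RPM per window in controls, 5.34 and 6.23 in the G9a cKO libraries, and 5.65 and 4.83 in the cDKO libraries. All 4 mutant libraries were above both controls, and the rise of 0.66 on the log2 scale passed the test in G9a cKO (SE 0.14, adjusted p = 0.0102), whereas that of 0.52 in cDKO did not (SE 0.14, adjusted p = 0.0518). Zfp57 had 4.35 and 3.63 RPM per window in controls, 2.15 and 1.50 in the G9a cKO libraries, and 3.09 and 4.25 in the cDKO libraries. Both G9a cKO libraries were below the controls on 12 and 5 reads against 92 and 208, and the fall passed the test (log2 fold change −1.14, SE 0.32, adjusted p = 0.0332). In cDKO it did not (−0.13, adjusted p = 0.845), and the cDKO and G9a cKO libraries were not shown to differ at Zfp57 (log2 difference 1.01, adjusted p = 0.148).

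Of the 10 bodies, 2 were called in G9a cKO, 1 in each direction, and 0 in cDKO (limma). Over 14093 gene bodies, 13% and 5.56% were called. At an unadjusted p under 0.05, 2 of the 10 passed in cDKO, Dnmt1 and Tet3, beside 23% of all bodies, which is near that share. Over all bodies the calls were 1265 higher and 572 lower in G9a cKO and 696 and 87 in cDKO. Centring each library on its median body turned these splits to 833 and 967, and 121 and 323. The Tet3 call in G9a cKO was lost without control replicate 1 (adjusted p = 0.0813) or 2 (0.0598), and with bodies extended by 10 kb the cDKO rise at Tet3 passed (0.62, adjusted p = 0.0169). The Zfp57 call was lost without control replicate 1 (0.342), control replicate 2 (0.172) or G9a cKO replicate 2 (0.0711).

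The writers whose RNA fell in cDKO did not show a called change of H3K9me2. Dnmt1 had 3.71 and 3.62 RPM per window in controls, 3.92 and 5.80 in the G9a cKO libraries, and 5.14 and 5.09 in the cDKO libraries. Both cDKO libraries were above the controls, by 0.48 on the log2 scale (SE 0.20, adjusted p = 0.162). The window that holds the 5′ end of the Dnmt1 locus (chr9:20960001-20970000) had 3.12 and 4.23 RPM in controls, 7.00 and 8.11 in the G9a cKO libraries, and 5.22 and 3.72 in the cDKO libraries, on 7 to 13 reads per mutant library. The locus ends at 20960182, so most of that window is flanking sequence, and the upstream annotated start (20959888) lies in the neighbouring window. Dnmt3a had 4.01 and 4.27 RPM per window in controls, 4.04 and 4.88 in the G9a cKO libraries, and 4.45 and 4.47 in the cDKO libraries (log2 fold change in cDKO 0.11, adjusted p = 0.693). The window that holds the printed Dnmt3a promoter (chr12:3800001-3810000) had 3.97 and 4.65 RPM in controls, 3.77 and 1.80 in the G9a cKO libraries, and 3.48 and 3.72 in the cDKO libraries. Over Dppa3 the log2 fold changes were −0.19 in G9a cKO and −0.08 in cDKO on 7 to 14 reads per mutant library. Over Uhrf1, Dnmt3b, Dnmt3l, Tet1 and Tet2 they ran from −0.27 to 0.39 in G9a cKO and from 0.02 to 0.66 in cDKO, with none called. Without G9a cKO replicate 1, the rise over Dnmt1 (0.66, adjusted p = 0.0188) and the fall over Tet1 (−0.57, adjusted p = 0.0482) in G9a cKO passed.

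**Figure D3:**
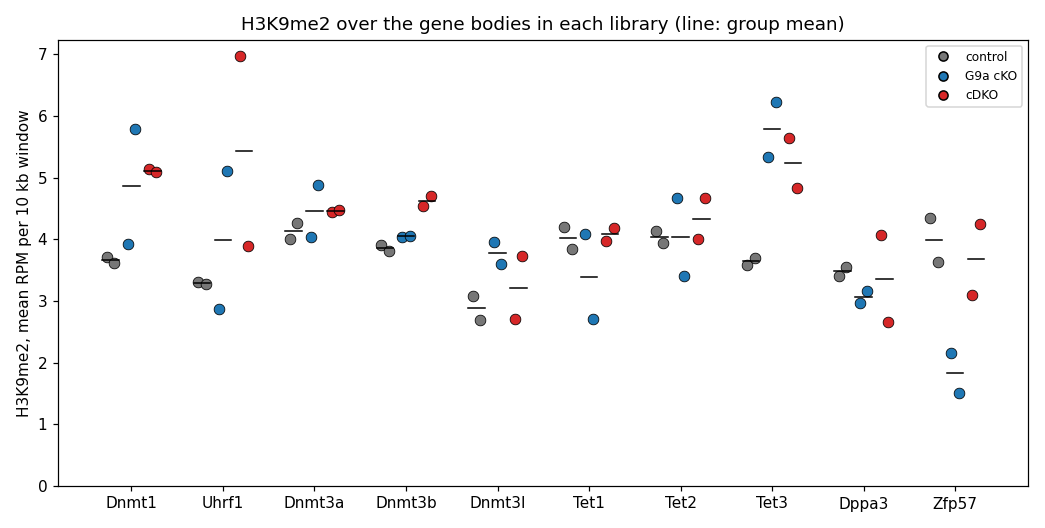
H3K9me2 over each gene body in mean RPM per 10 kb window on the vertical axis, with 2 libraries per genotype as points and group means as lines. The mutant libraries of Tet3 lie at 4.83 to 6.23 and its controls at 3.59 and 3.69, and the G9a cKO libraries of Zfp57 lie at 1.50 and 2.15.

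The genes that work beside these enzymes were described from 4 lists drawn up by function. Their counts stand beside the shares given above, 1.79% of all loci and 5.22% of those of at least 10 RPM called in G9a cKO, and 6.34% and 15.8% in cDKO. Of the maintenance and targeting partners, 19 of 22 had a locus, and in cDKO 1 was higher and 3 were lower, the deleted Ehmt1 among them. Ehmt1, which was deleted there, fell (log2 fold change −2.06, adjusted p = 1.09e-21), as did Usp7, a deubiquitinase that binds DNMT1 and UHRF1 (−0.30, adjusted p = 0.000843), and Nsd1, a methyltransferase of histone H3 lysine 36 (−0.37, adjusted p = 0.0105). Usp7 had 991, 997 and 924 RPM in GKAQ controls and 716 and 864 in cDKO, without overlap, and its locus overlaps one on the other strand. Nsd1 had 348, 345 and 367 RPM and 284 and 264, also without overlap. Nlrp5, a maternal-effect protein of the oocyte cortex, rose in each mutant. Its log2 fold change was 0.21 without G9A (adjusted p = 2e-07) and 0.13 without both enzymes (adjusted p = 0.0183), and it was the single partner of this list called in G9a cKO. It had 4096, 3710 and 3821 RPM in GKAO controls and 4642, 4605 and 4243 in G9a cKO. In GKAQ controls it had 3643, 3228 and 3773 and in cDKO 3989 and 3747, which overlapped. Usp7 and Nlrp5 also differed between the control sets, by 0.37 and −0.13 on the log2 scale. The list's median log2 fold change was 0.00 in G9a cKO and −0.08 in cDKO.

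Of the readers of methylated DNA, 7 of 10 had a locus and 0 were called in either mutant by limma, a number too small to set apart from the shares over all loci. At an unadjusted p under 0.05 Mbd1 and Zbtb33 passed in G9a cKO and Mbd3 in cDKO, and the list's medians were −0.03 and 0.25. Of all 38540 loci, 4044 passed that threshold in G9a cKO and 6143 in cDKO. The list is too small to set its genes apart from those shares. Of the base excision and deamination genes, 14 of 18 had a locus. Neil3, a DNA glycosylase, rose in cDKO (log2 fold change 0.27, adjusted p = 0.0445), from 268, 269 and 286 RPM to 367 and 299, and was lower in GKAQ than in GKAO controls by more than that (−1.04, adjusted p = 5.22e-34). Tdg, the glycosylase that removes oxidised methylcytosine, was called lower in G9a cKO (adjusted p = 0.0386) on 1, 6 and 3 reads in GKAO controls and 0 in all 3 G9a cKO pools, and no fold is given at this depth. It was also called lower in GKAQ than in GKAO controls (adjusted p = 0.0416), on 1, 0 and 0 reads, and its locus overlaps one on the other strand. Of the methyl donor genes, 16 of 19 had a locus and 2 rose in cDKO, no larger a share than the 15.8% of loci of at least 10 RPM. Adk, adenosine kinase, rose from 64.1, 66.3 and 54.7 to 106 and 86.6 RPM (log2 fold change 0.64, adjusted p = 0.00577). Its locus overlaps one on the other strand, and it was lower in GKAQ than in GKAO controls (−0.59, adjusted p = 0.00576). Ahcy, which hydrolyses S-adenosylhomocysteine, rose from 5, 14 and 18 reads to 26 and 20 (1.28, adjusted p = 0.0422). Its mean was 5.95 RPM in GKAQ controls and 13.33 in cDKO, beside 13.01 in GKAO controls. The log2 difference between the control sets was −1.12 and was not called (limma, adjusted p = 0.0698). No methyl donor gene was called in G9a cKO. The medians of the base excision list were −0.02 in G9a cKO and 0.21 in cDKO. Those of the methyl donor list were −0.11 and 0.20. Beside them, the medians were 0.01 and 0.05 over loci of at least 10 RPM, and −0.31 and 0.20 over all loci. Both lists hold loci without reads, whose values are set by library depth. Apobec3 and Shmt1 had no reads in any library and were each at −0.32 in G9a cKO and 0.20 in cDKO. No shift of either list was therefore read from these medians.

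For a writer, a protector and an eraser, the named genes with the most similar pattern were found by the root mean square distance between log2 values centred over the 11 libraries, among 6940 genes of at least 10 RPM. This is a description, since the libraries are shared. Nearest to Dnmt1 were Kat14 (distance 0.054), Dhx38 (0.067) and Kcnh1 (0.069), where the median gene lay at 0.357. All 3 were lower in cDKO by 0.51 to 0.57 on the log2 scale and overlap a locus on the other strand. Nearest to Dppa3 were Utp18 (0.123), Gm813 (0.133) and Arpp19 (0.159), where the median gene lay at 0.637. These had mean log2 levels of 7.82, 9.76 and 7.68 in GKAQ controls against 6.90, 8.68 and 6.58 in GKAO controls. Nearest to Tet3 were Arid1a (0.175), Zbtb46 (0.182) and Xpo1 (0.185), where the median gene lay at 0.508.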

How the data were processed

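The authors deposited RNA values per transcript locus and H3K9me2 values per 10 kb window as log2, 1 column per library, without pooling replicates. The unit was inferred from the values: log2 of RPM (reads per 1000000 of each library), with features of 0 reads set to 0.9 read. The submitters' processing notes name Trim Galore, Bowtie2, HISAT2 2.1.0, Bismark 0.19.0 and GRCm38, with no role. The counting method and its use of strand are not given in the sources used here. Of the H3K9me2 columns, 4 match no sample and were not used. Bisulphite, input and IgG libraries were not analysed here.

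The members and lists were chosen with earlier results of these data known. limma 3.58.1 (R 4.3.3) was fitted to the deposited log2 values of all 38540 loci over the 11 RNA libraries, with a mean per group and empirical Bayes with trend and robust. P-values are two-sided and Benjamini-Hochberg adjusted over all loci, and called means an adjusted p under 0.05. H3K9me2 windows overlapping each named locus were summed and fitted likewise over 14093 gene bodies. No pseudocount was added except on the log2(RPM + 1) scale. Scripts were tested on simulated data. Named genes were all 10 members, up to 4 called genes with the smallest adjusted p per list and any deleted gene, and the 3 nearest genes to Dnmt1, Dppa3 and Tet3. No replicate pair agreed within sampling noise (lowest chi-square per degree of freedom 1.768). Alternatives were the loci tested, offset, scaling, variance model, weights, libraries fitted, controls, replicates left out, a replicate block and, for H3K9me2, the window extent. Tables and plots were made in Python 3.11.15 (pandas 2.3.3; matplotlib 3.10.9).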

Additional observations from a re-analysis of the deposited data

Results flagged for a closer look

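For 2 genes the effects of the 2 genotypes differed by the test of the difference itself (limma, adjusted over 38540 loci). For Dnmt1 the cDKO effect minus the G9a cKO effect was −0.581 on the log2 scale, with both cDKO pools below their 3 controls and the 3 G9a cKO pools overlapping theirs. For Tet3 the same difference was −0.564, with 2 of 3 G9a cKO pools above all of their controls and 1 of 2 cDKO pools below all of its own. The call was lost in 2 of 17 alternatives for Dnmt1 and in 9 of 17 for Tet3. Each genotype has a title prefix of its own, so the 2 cannot be told apart in this difference.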

How the results depend on the processing

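P-values rest on 2 or 3 pools per group and a spread shared over loci, Tet1 and Tet2 on at most 16 reads, and H3K9me2 in the mutants on libraries of 1109191 to 1881848 reads. The fold changes of Dnmt1, Dnmt3a and Tet2 in cDKO, Dppa3 and Tet3 between control sets, and Dppa3 in G9a cKO kept their direction under each alternative run. Their calls did not under all.

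Loci called, as a share of the 38540 loci, were 1.79% in G9a cKO, 6.34% in cDKO, 1.08% in the difference and 3.87% between control sets. On the log2(RPM + 1) scale they were 0.0882%, 3%, 0.265% and 1.09%, with 0, 2, 1 and 1 genes of the group called. Without trend and robust they were 0.464%, 2.99%, 0.213% and 0.283%, with 0, 0, 0 and 1 genes called. With all 6 controls pooled, 3.11% were called in G9a cKO. On loci of at least 1 RPM, 1 gene was called in the difference. The causes were not tested. All these shares, and those that follow, take in empty loci: 16821 to 19207 loci had 0 reads in each library and hold a value set by library depth. In the difference, the median log2 value was 0.521 over all loci and 0.028 over loci of at least 10 RPM. How many of the calls fell on empty loci was not counted. Without 1 replicate, loci called ran from 0.983% to 1.5% in G9a cKO (lowest without the library labelled G9a cKO replicate 2, where 348 of 379 calls were among the 689), from 4.05% to 4.99% in cDKO (lowest without cDKO replicate 1) and from 0.719% (without GKAQ control replicate 3) to 38.2% (without GKAQ control replicate 1) in the difference. Genes called then ran from 1 to 2 in G9a cKO and from 1 to 4 in the difference. H3K9me2 bodies called ran from 569 (without control replicate 2; 578 without replicate 1) to 2678 in G9a cKO and from 0 (without either cDKO library) to 176 (without control replicate 1; 103 without replicate 2) in cDKO, and were 444 in cDKO after centring.

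Title numbers are shared by some pools. Pools of the same number in the GKAO set had correlations of their deviations from 0.011 to 0.113. Those of different numbers had −0.122 to 0.003, below all of these, and this difference was not tested. The labels do not say what a number marks, so it was not taken to pair the pools. With it as a block, 2.52% of loci and 2 genes were called in cDKO, where Dppa3 was −0.11 (adjusted p = 0.499) and Dnmt3a −0.417 (0.0707). In the block the difference of Dnmt3b was −0.115 and of Dppa3 0.301, and Dnmt3l in G9a cKO was −0.018. Within number 55, Dnmt1 was −0.609.

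Some values changed sign in places. They were uncalled in the fit reported above, except Dppa3 in cDKO, which was called there at −0.41 (limma, adjusted p = 1.51e-05). Not all were near 0 in that fit, where Tet1 was −0.57 in G9a cKO and 0.72 in cDKO. With controls pooled, Tet1 was 0.385 in G9a cKO and −0.236 in cDKO, Uhrf1 0.04 and Dppa3 0.112 in cDKO. After centring, Dnmt3l was −0.019 and Tet2 −0.013 in G9a cKO. Without 1 replicate, G9a cKO values ran from −0.004 to 0.231 (Dnmt3b), −0.038 to 0.041 (Dnmt3l) and −0.314 to 0.331 (Tet2), Uhrf1 in cDKO from −0.029 to 0.004, Dnmt3l between controls from −0.084 to 0.061 and the difference of Dppa3 from −0.314 to 0.213. H3K9me2 in G9a cKO after centring was −0.035 (Dnmt3a) and −0.067 (Dnmt3b), with extended bodies 0.071 (Dppa3) and 0.105 (Tet2), and without 1 replicate −0.034 to 0.24 (Dnmt3a), −0.569 to 0.023 (Tet1), −0.244 to 0.211 (Tet2) and −0.197 to 0.634 (Uhrf1). In cDKO after centring it was −0.125 (Dnmt3a), −0.091 (Dnmt3l), −0.212 (Tet1) and −0.136 (Tet2), and without 1 replicate −0.085 to 0.373 (Dnmt3l), −0.389 to 0.224 (Dppa3), −0.042 to 0.087 (Tet1), −0.013 to 0.21 (Tet2) and −0.36 to 0.098 (Zfp57).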
